A study of Mus musculus with 8 samples.

Results

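Rgs16 and Mtss1 are 2 of the 48432 genes listed for 8 mouse liver RNA-seq libraries. They were taken up because their values were higher in each of the 4 libraries from mice exposed to PM2.5 than in each of the 4 from mice in filtered air. The mice were wild-type C57BL/6 animals, kept for 30 weeks in 1 of 4 conditions with 2 libraries each. LL-PM2.5 combined constant light with PM2.5, which is fine particulate matter that reaches the deep lung. LD-PM2.5 combined a light/dark cycle with PM2.5. LL-FA was constant light with filtered air and LD-FA a light/dark cycle with filtered air. All groups share strain, genotype, tissue and length of exposure. The labels give neither the sex of the mice nor the hour of collection, and do not say that replicates are separate animals. The p-values then measure the spread between these libraries, which may be technical.

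Rgs16 encodes a regulator of G protein signalling. RGS proteins speed up the hydrolysis of GTP by the alpha subunits of heterotrimeric G proteins and so shorten the signal that a receptor sends into the cell. In mouse liver, Rgs16 is known as a daily rhythmic transcript of hepatocytes around the portal vein that responds to feeding and fasting, and its protein acts on Gi and Gq type subunits. Mtss1 encodes a membrane-bending scaffold of the inverse BAR (I-BAR) domain family, also known as MIM. It binds phosphoinositide-rich membrane and actin, shapes cell protrusions, and was first described as missing in metastatic cells.

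Rgs16 (ENSMUSG00000026475.7) lies on the plus strand of chromosome 1, 153740349 to 153745468 (GRCm38/mm10), and has 1 annotated transcript with 5 exons. Mtss1 (ENSMUSG00000022353.9 in the deposited table) lies on the minus strand of chromosome 15, 58941234 to 59082005, with 12 annotated transcripts of which 4 code for protein, with 4 to 15 exons. The values are per gene and do not tell these transcripts apart. The Rgs16 promoter is shown for the elements through which clock and cAMP signals are known to act on genes. The window runs from 250 bases before to 50 bases after the transcription start (RefSeq, GRCm38.p6, chr1:153740103-153740402, plus strand), and capitals mark the motifs found in it.
Rgs16 promoter: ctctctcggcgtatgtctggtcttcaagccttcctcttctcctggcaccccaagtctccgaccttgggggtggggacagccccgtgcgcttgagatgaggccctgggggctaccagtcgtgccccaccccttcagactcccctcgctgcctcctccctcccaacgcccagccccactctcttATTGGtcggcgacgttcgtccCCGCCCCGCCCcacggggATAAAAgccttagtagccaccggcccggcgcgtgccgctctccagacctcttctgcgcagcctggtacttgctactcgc
The capitals are, from left to right, a CCAAT box read on the minus strand (ATTGG), a pair of GC boxes read on the minus strand (CCGCCC) that overlap by 1 base, and a TATA-like ATAAAA. These motifs, counted on either strand, are in 37.4%, 35.7% and 18.5% of 32851 promoter windows of the same length. The E-box CACGTG, through which CLOCK and BMAL1 act, its variant CACGTT, the D-box TTATGTAA of the PAR bZIP factors and the short cAMP response element TGACG are not in these letters on either strand. They are in 7.15%, 4.68%, 0.938% and 20.8% of windows. The Rgs16 window has 66.0% G and C, against a median of 52.7% over all windows.

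Rgs16 was low in every library and far lower in filtered air. The LL-PM2.5 replicates 1 and 2 held 3.30 and 1.61 FPKM (fragments scaled by transcript length and library size), and the LD-PM2.5 replicates held 1.64 and 2.17 FPKM. Rgs16 stood at 0.088 and 0.12 FPKM in LL-FA and at 0.35 and 0.293 FPKM in LD-FA. Every PM2.5 library lay above every filtered air library, and within filtered air both constant light libraries lay below both light/dark libraries. These levels rest on few fragments, namely 286 and 132 for LL-PM2.5, 134 and 140 for LD-PM2.5, 7 and 8 for LL-FA and 26 and 28 for LD-FA. The exact 95% Poisson intervals cover counting error only. They reach at most 15.8 fragments in LL-FA and start at 17.0 in LD-FA and at 110.4 in the PM2.5 libraries. These bounds are not scaled to library size. The 15.8 is from LL-FA replicate 2, with 22719024 estimated fragments, and the 17.0 from LD-FA replicate 1, with 26851107. No gap between LL-FA and LD-FA is therefore read from the intervals. Rgs16 reached 1 FPKM in the 4 PM2.5 libraries and in no other, so it entered the set of tested genes (at least 1 FPKM in at least 2 libraries) through those libraries alone.

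Set as group means, Rgs16 averaged 2.46 ± 1.19 FPKM in LL-PM2.5 against 0.104 ± 0.023 FPKM in LL-FA (SD, n = 2 each). The log2 fold change of that pair was 4.54 ± 0.43 (SE), a 23.2-fold difference. Under the light/dark cycle Rgs16 averaged 1.91 ± 0.374 FPKM in LD-PM2.5 against 0.322 ± 0.0404 FPKM in LD-FA (SD, n = 2 each), a log2 fold change of 2.59 ± 0.37 or 6.01-fold. LL-PM2.5 stood 7.77-fold above LD-FA (log2 2.96 ± 0.38). Averaged over both light regimes the PM2.5 difference was 3.56 ± 0.29, the highest log2 fold change of the 11316 genes tested. These fold changes come from the edgeR fit on fragments across all tested genes. They describe the contrast by which the gene was chosen and carry no test.

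Mtss1 was a well expressed transcript in all 8 libraries. The LL-PM2.5 replicates held 30.3 and 29.7 FPKM and the LD-PM2.5 replicates 35.4 and 41.8 FPKM. It had 15.2 and 14.4 FPKM in LL-FA and 13.1 and 14.4 FPKM in LD-FA. The filtered air libraries lay close together and the lowest PM2.5 library was 1.96 times the highest of them. With 1961 to 5649 fragments per library, counting error is small beside these differences.

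Mtss1 averaged 30.0 ± 0.387 FPKM in LL-PM2.5 against 14.8 ± 0.534 FPKM in LL-FA (SD, n = 2 each). The log2 fold change was 1.04 ± 0.16 (SE), or 2.06-fold. In the light/dark cycle it averaged 38.6 ± 4.56 FPKM in LD-PM2.5 against 13.7 ± 0.962 FPKM in LD-FA (SD, n = 2 each), a log2 fold change of 1.46 ± 0.16 or 2.75-fold. LL-PM2.5 stood 2.22-fold above LD-FA (log2 1.15 ± 0.16), and the mean over both light regimes was 1.25 ± 0.11, which ranked 53rd of 11316. Its mean level lay at percentiles 82.6 and 85.8 of all tested genes in LL-PM2.5 and LD-PM2.5, against 70.5 and 68.6 in LL-FA and LD-FA. The pooled SD between replicates was 0.16 log2 CPM for Mtss1 and 0.38 for Rgs16.

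**Figure D1:**
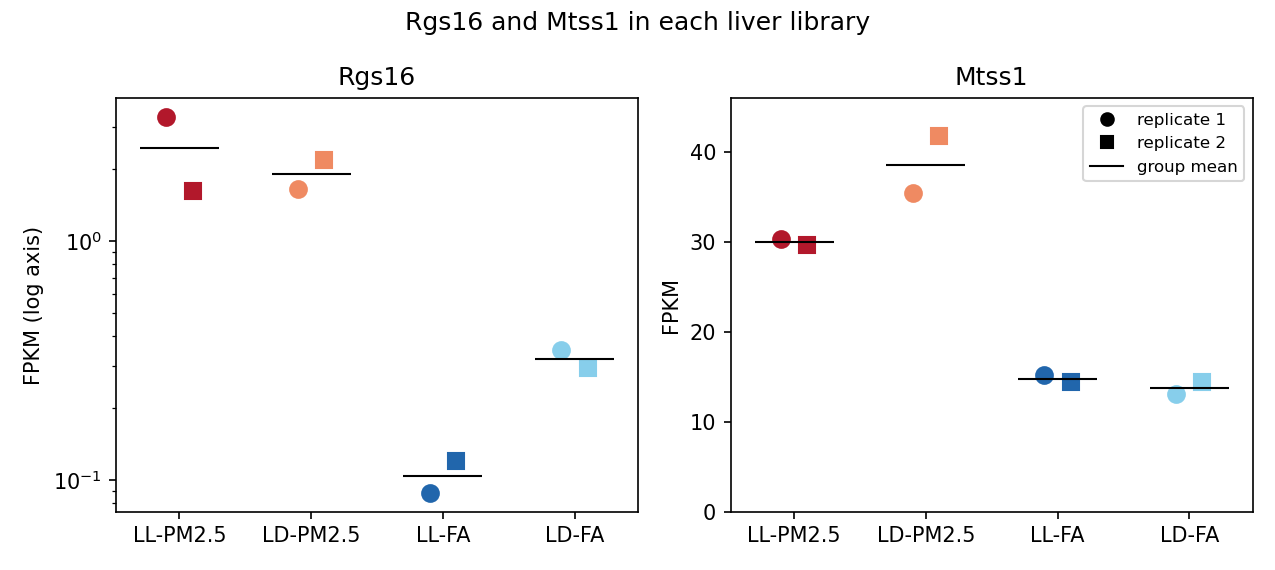
FPKM of Rgs16 (log axis) and Mtss1 (linear axis) in each library, grouped by condition, with a line at the group mean of 2 libraries. Both genes are higher in all 4 PM2.5 libraries, and Rgs16 is lowest in LL-FA at 0.088 and 0.12 FPKM.

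The order of libraries used in the choice was counted over all tested genes. Of 11316 tested genes, 180 (1.59%) were higher in all 4 PM2.5 than in all 4 filtered air libraries, and 205 (1.81%) were lower. Ordered on TMM-scaled log2 CPM in place of FPKM, 319 genes were higher, and with a filter at 5 FPKM, which Rgs16 does not pass, 84. Rgs16 ranked 1 and Mtss1 ranked 2 by the ratio of the lowest PM2.5 to the highest filtered air library, with ratios of 4.61 and 1.96. The next gene, Rmrp, had a ratio of 1.54. At the edge of the choice, Snrk lay just inside with a gap of 2.2e-05 on the log2(FPKM + 1) scale and Unk just outside with a gap of -0.0002. For the mean PM2.5 difference over light, edgeR called 2 genes (0.0177% of those tested), which are Rgs16 and Mtss1 themselves. Since that contrast chose them, nothing is read from the calls. Leaving out any 1 library changed the count: it was 17 without LD-PM2.5 replicate 1, 10 when LL-PM2.5 replicate 1 was left out, 1 when LL-PM2.5 replicate 2 was, and 0 for each of the other 5 libraries.

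**Figure D2:**
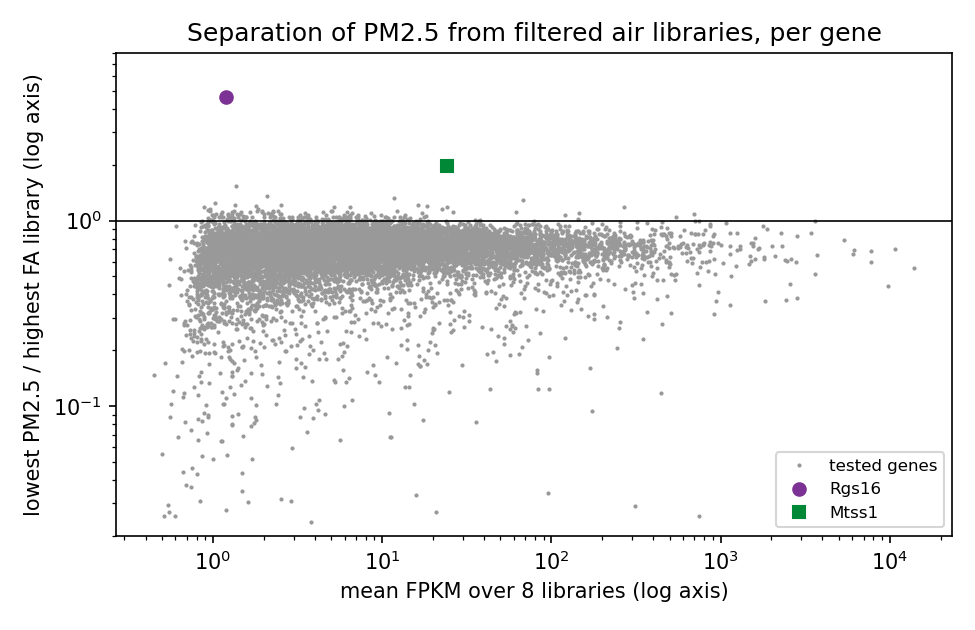
For each tested gene, the FPKM of the lowest PM2.5 library over that of the highest filtered air library, against the mean FPKM over 8 libraries (both axes log). Genes off the lower edge are not shown. Points above the line at 1 are higher in all PM2.5 libraries, and Rgs16 at 4.61 and Mtss1 at 1.96 stand above the other genes.

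Constant light was compared with the light/dark cycle within each air condition, a contrast the choice of genes did not use. In filtered air, Rgs16 was lower in LL-FA, with a log2 fold change of -1.58 ± 0.45 (SE), 95% interval -2.64 to -0.52. It did not pass the edgeR test over all genes (adjusted p = 1), and its adjusted p ran from 0.0233 to 1 over the alternatives. With no filter on low genes, Rgs16 was called at -1.60 (edgeR adjusted p = 0.0233), as 1 of 201 called among 23030 genes fitted. With the filter, 0 of 11316 genes were called. Limma on log2(FPKM + 0.1) gave -1.05 and on log2(FPKM + 1) gave -0.26, both with a limma adjusted p of 1. Under PM2.5, Rgs16 stood at 0.37 ± 0.33 in LL-PM2.5 over LD-PM2.5 (edgeR adjusted p = 0.716). The 1.61 and 3.30 FPKM of LL-PM2.5 enclose both LD-PM2.5 values, and without LL-PM2.5 replicate 1 the value was -0.16. Averaged over air, the light difference was -0.60 ± 0.28 (edgeR adjusted p = 0.861).

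Mtss1 differed little with light in filtered air. Its log2 fold change in LL-FA over LD-FA was 0.11 ± 0.16, 95% interval -0.27 to 0.48 (edgeR adjusted p = 1), and it was -0.01 without LD-FA replicate 1. Under PM2.5 it was -0.31 ± 0.16 in LL-PM2.5 over LD-PM2.5, 95% interval -0.68 to 0.06 (edgeR adjusted p = 0.579), although the FPKM of these groups did not overlap. Such a separation was seen in 30.7% of tested genes for that pair and in 21.9% for LL-FA and LD-FA, where the Rgs16 values did not overlap either. The mean over air was -0.10 ± 0.11 (edgeR adjusted p = 0.95).

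The interaction asks whether the PM2.5 difference depended on light. For Rgs16 the PM2.5 difference was larger in constant light by 1.95 ± 0.57 log2 units, 95% interval 0.63 to 3.27, and this did not pass (edgeR adjusted p = 0.843). Most of it comes from filtered air, where the light difference was -1.58 and LL-FA held only 7 and 8 fragments. Under PM2.5 the light difference was 0.37. Leaving out 1 library gave 1.42 to 2.33 for the Rgs16 interaction. With no filter on low genes it was called at 1.97 (edgeR adjusted p = 0.026), as 1 of 239 called among 23030 genes. Limma on log2(FPKM + 0.1) gave 1.32 and on log2(FPKM + 1) gave 0.47, both with a limma adjusted p of 1. For Mtss1 the sign was the other way, at -0.42 ± 0.22, 95% interval -0.94 to 0.11 (edgeR adjusted p = 0.843). In order of mean FPKM, Rgs16 ran LL-PM2.5, LD-PM2.5, LD-FA, LL-FA, and Mtss1 ran LD-PM2.5, LL-PM2.5, LL-FA, LD-FA. Not all steps of these orders are separated. The Rgs16 values of LL-PM2.5 enclosed those of LD-PM2.5, and LL-FA and LD-FA each had a Mtss1 value of 14.4 FPKM. Over all genes edgeR called 0 (0.0%) for light in filtered air, 0 (0.0%) for light under PM2.5, 0 (0.0%) for the mean over air and 0 (0.0%) for the interaction. At an unadjusted p under 0.05 there were 310, 1044, 641 and 552 genes in that order, and DESeq2 called 43, 141, 92 and 33.

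**Figure D3:**
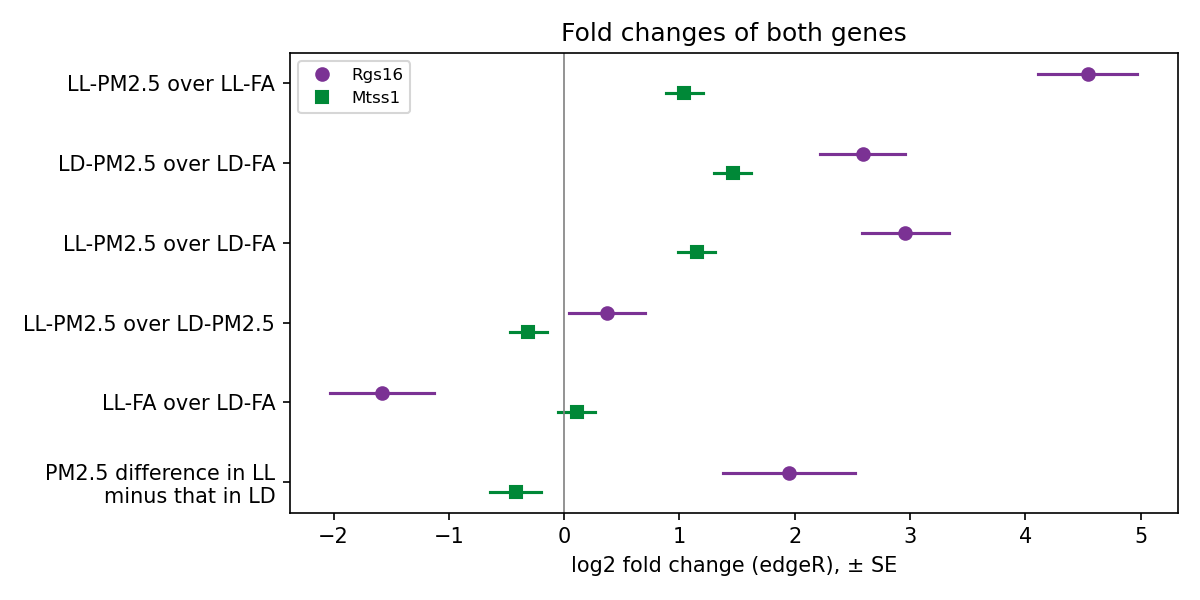
Log2 fold changes (edgeR, ± SE) of Rgs16 and Mtss1 in the 3 comparisons with PM2.5, the 2 with light and the interaction. The PM2.5 difference of Rgs16 is 4.54 in constant light and 2.59 in the light/dark cycle, and that of Mtss1 is 1.04 and 1.46.

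The libraries held 22214720 to 31819109 estimated fragments. Markers of other tissues were uneven between them. The 6 skeletal muscle markers summed to 0.579 to 1.30 FPKM in the PM2.5 libraries, against 510, 0.695, 269 and 30.8 FPKM in LL-FA replicates 1 and 2 and LD-FA replicates 1 and 2. The 8 acinar pancreas markers summed to 336 FPKM for LL-PM2.5 replicate 2, 122 for LD-PM2.5 replicate 1, 3430 for LD-FA replicate 1, and to 17.8 to 34.7 in the other 5. No marker of these lists was at 0 in all libraries. Without LL-FA replicate 1 and LD-FA replicate 1, the mean PM2.5 difference was 3.50 for Rgs16 and 1.19 for Mtss1. In LL-FA replicate 2, where the muscle sum was 0.695 FPKM, Rgs16 was at 0.12 FPKM and Mtss1 at 14.4 FPKM. The 4 hepatocyte markers that could be used, which leave out albumin for want of an estimate, summed to 13100 to 17900 FPKM in PM2.5 and 14000 to 18100 in filtered air. Sinusoidal endothelium (59.7 to 69.4 against 56.9 to 70.7 FPKM), stellate cell (166 to 185 against 150 to 205) and Kupffer cell markers (110 to 136 against 96.6 to 146) overlapped between PM2.5 and filtered air. The same held for cholangiocyte, neutrophil, B and plasma cell, erythroid and adipocyte markers, while the 4 T and NK cell markers summed to 1.32 to 3.20 FPKM in PM2.5 and 1.02 to 1.29 FPKM in filtered air. The part of other cell types in the Rgs16 and Mtss1 differences was not tested. In whole liver, fewer cells of a type and less RNA per cell cannot be told apart.

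Rgs16 was chosen for being higher in all PM2.5 libraries, and 0 of the 5 other tested RGS genes were, where the share over all tested genes is 1.59%. Of 21 listed RGS genes 6 were tested and the rest stayed under the filter, Rgs13, Rgs21 and Rgs22 being listed at 0. The 5 tested besides Rgs16 had a median log2 fold change of 0.16 for PM2.5 over both light regimes (0.0 over all tested genes), and none was called. Rgs5, the most abundant, which is known from pericytes, had 11.9 to 14.2 FPKM in PM2.5 and 8.66 to 14.5 FPKM in filtered air (log2 0.16 ± 0.12). Rgs2, an inhibitor of Gq signalling, stood at -0.18 ± 0.28, Rgs3 at 0.42 ± 0.18, Rgs10 at 0.10 ± 0.28 and Rgs19 at 0.30 ± 0.21. Per length, Rgs16 made up 6.89% to 13.6% of the summed RGS FPKM in PM2.5 libraries and 0.422% to 1.94% in filtered air. The rest of that sum was 18.9 to 21.8 FPKM in PM2.5 and 14.8 to 21.9 FPKM in filtered air.

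Genes of the G proteins and receptors whose signal RGS proteins shorten are given by their values, and none was called (0.0177% over all tested genes). Of 10 tested G protein alpha subunits, 4 had a positive and 6 a negative log2 fold change for PM2.5 over both light regimes, with a median of -0.01. Gnaq, the Gq subunit, stood at 0.21 ± 0.12 and Gnai1, a Gi subunit, at -0.36 ± 0.21. Gna14 stood at -0.73 ± 0.41 and Gnat1, the transducin subunit best known from the retina, at 0.86 ± 0.36. Of 10 tested G protein coupled receptors 8 were negative with a median of -0.23. The alpha adrenergic receptor Adra1b stood at -0.27 ± 0.11, the angiotensin receptor Agtr1a at -0.31 ± 0.12, the vasopressin receptor Avpr1a at -0.29 ± 0.13 and the sphingosine phosphate receptor S1pr2 at -0.35 ± 0.16.

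Of 5 I-BAR family genes found in the table, 3 passed the filter. Mtss1 made up 59.3% to 67.0% of the family's summed FPKM in PM2.5 libraries and 43.6% to 50.0% in filtered air. Baiap2l1, an I-BAR protein of epithelial cells also called IRTKS, was higher in all PM2.5 libraries as well (1.59% over all tested genes). It had 10.4 and 9.46 FPKM in LL-PM2.5 and 9.87 and 12.2 FPKM in LD-PM2.5. In LL-FA it had 8.93 and 8.87 FPKM and in LD-FA 5.54 and 6.39 FPKM, so the lowest values were those of LD-FA. Its mean PM2.5 difference was 0.53 ± 0.13 and was not called. Baiap2 (IRSp53), which links Rac and Cdc42 to actin, overlapped between the airs, with a mean PM2.5 difference of 0.05 ± 0.22. Of 17 tested actin partners and genes of membrane protrusion 8 were positive and 9 negative, with a median of -0.03 and none called. The actins Actb and Actg1 stood at -0.26 ± 0.12 and -0.28 ± 0.12, the Arp2/3 activator Wasl at 0.16 ± 0.08 and cofilin (Cfl1) at -0.14 ± 0.09.

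**Figure D4:**
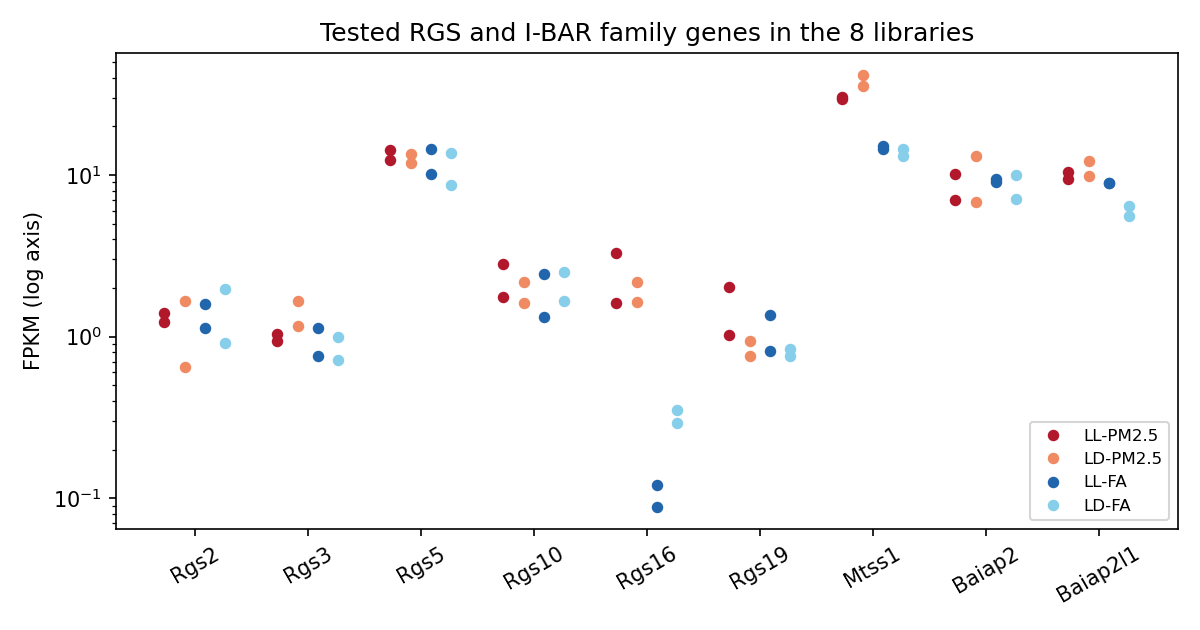
FPKM (log axis) in each library of the tested RGS genes and the tested I-BAR genes. The 5 other tested RGS genes and Baiap2 overlap between PM2.5 and filtered air. Rgs16, Mtss1 and Baiap2l1 do not.

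Likeness of pattern was measured as the root mean square (RMS) difference between log2 CPM profiles over the 8 libraries, each centred on its own mean. Rgs16 varied by 1.76 about its mean and Mtss1 by 0.64, against a median of 0.19 over tested genes. Both genes were chosen for the same PM2.5 pattern, so nearness uses the values that chose them and is a description. Mtss1 ranked 3 of 11315 in nearness to Rgs16, at an RMS difference of 1.23, but Rgs16 ranked 11094 of 11315 in nearness to Mtss1. Nearer were an immunoglobulin kappa variable segment (1.10), which had only 1 to 13 fragments per library, and Irs2 (1.19), the insulin receptor substrate. For Irs2 the LL-PM2.5 libraries held 2.61 and 4.83 FPKM and the LD-PM2.5 libraries 4.34 and 4.05 FPKM, against 0.852 and 1.38 FPKM for LL-FA and 2.44 and 2.67 FPKM for LD-FA. It thus shares with Rgs16 its lowest values in LL-FA. As Irs2 was picked for likeness to Rgs16 over these libraries, nothing is read from that. Arrdc3, an arrestin-domain protein, followed at 1.24 and 9430085M18Rik, with 4 to 45 fragments, at 1.27.

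The genes nearest to Mtss1 lay much closer. Rmrp (RMS difference 0.25) is a short noncoding RNA with 2 to 11 fragments per library, so its place rests on few counts. Elovl6, a fatty acid elongase, followed at 0.27, with 17.5 to 27.2 FPKM in PM2.5 and 9.57 to 14.4 FPKM in filtered air. Ints2, an Integrator subunit, and Herpud1, a protein of endoplasmic reticulum stress, both stood at 0.32, and the phosphate transporter Slc20a1 at 0.33. All 5 were higher in all PM2.5 libraries (1.59% over all tested genes). They were picked for likeness to Mtss1, which has this order, so nothing is read from that count. Mean PM2.5 differences were 1.67 ± 0.46 for Rmrp, 0.79 ± 0.19 for Elovl6 and 0.80 ± 0.13 for Ints2. They were 0.69 ± 0.11 for Herpud1 and 0.73 ± 0.15 for Slc20a1. On log2(FPKM + 1) in place of log2 CPM, 2 of the 5 neighbours of Rgs16 and 3 of the 5 of Mtss1 were the same.

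**Figure D5:**
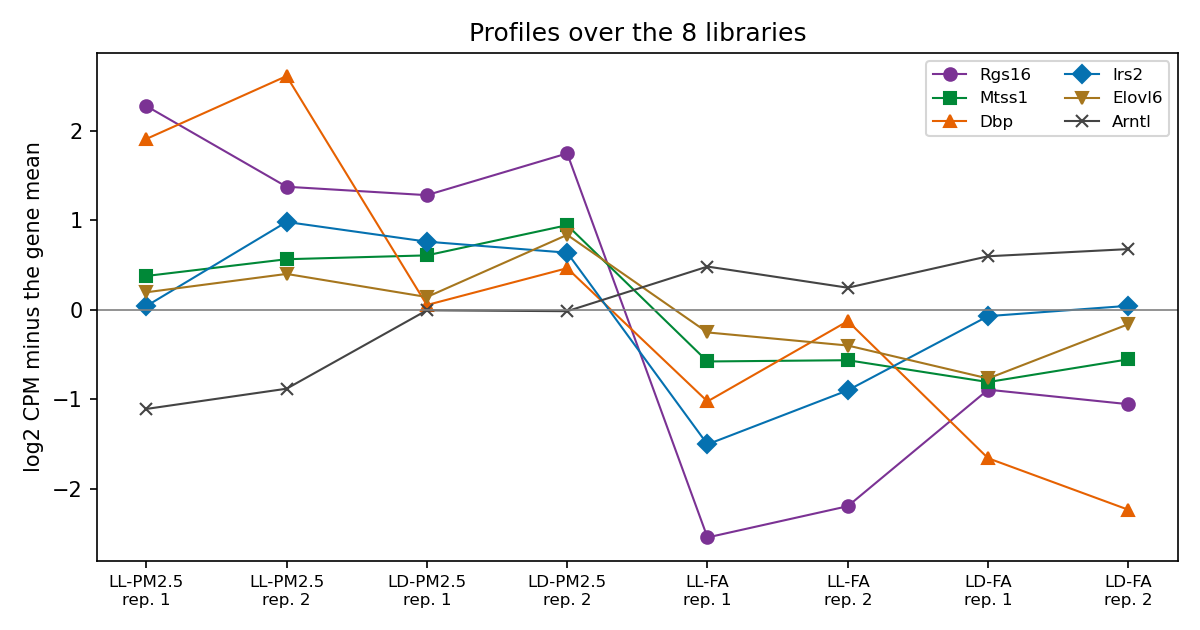
Log2 CPM of 6 genes in the 8 libraries, each centred on its own mean. Rgs16 is lowest in LL-FA and Dbp in LD-FA, Mtss1 and Elovl6 run close together, and Arntl is highest in filtered air.

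No clock gene on the lists was called, as for all but 0.0177% of tested genes. All 12 tested E-box driven clock genes had a positive mean PM2.5 difference, with a median of 1.10 against 0.0 over all tested genes, and 4 were higher in all PM2.5 libraries (1.59% over all tested genes). Dbp, a clock-driven transcription factor, had 32.9 and 54.0 FPKM for LL-PM2.5 and 9.12 and 13.0 FPKM for LD-PM2.5, against 3.86 and 9.08 FPKM for LL-FA and 2.77 and 2.05 FPKM for LD-FA. Its mean PM2.5 difference was 2.51 ± 0.27, just short of being called (edgeR adjusted p = 0.0672). In LL-FA over LD-FA, Dbp stood at a log2 fold change of 1.43 and Rgs16 at -1.58, neither of them called. Nr1d2, which encodes REV-ERB beta, stood at 0.62 ± 0.12, Per3 at 2.44 ± 0.52 and Tef at 1.20 ± 0.29. Of 6 genes of the opposite clock phase 4 were positive and 2 negative, with a median of 0.18. Cry1 is counted on both clock lists. In constant light 1 of the 6 was positive and 5 negative (median -0.49), and in the light/dark cycle 4 and 2 (median 0.51). Of the 6 genes, 2 were lower in all PM2.5 libraries (1.81% over all tested genes). These were Arntl, which encodes BMAL1, at -1.01 ± 0.10 and its relative Npas2 at -2.63 ± 0.62. Arntl was just short of being called (edgeR adjusted p = 0.0569), and Npas2 had an edgeR adjusted p of 0.396. Nfil3 and Rora stood at 0.20 ± 0.12 and 0.18 ± 0.14. The part of the clock phase of the livers in the Rgs16 and Mtss1 differences was not tested.

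Genes of feeding and fasting, to which hepatic Rgs16 responds in mice, are given by their values. Of 14 tested genes of the carbohydrate sensor ChREBP and the glucose response, 11 had a positive mean PM2.5 difference, with a median of 0.28 and 3 higher in all PM2.5 libraries (1.59% over all tested genes). Those were Elovl6, the thioredoxin inhibitor Txnip at 0.37 ± 0.10 and the fatty acid synthesis enzyme Acaca at 0.42 ± 0.14. Arrdc4, another glucose-induced arrestin, stood at 0.50 ± 0.10. Of 16 tested genes of fasting, FOXO and glucocorticoid response, 15 were positive with a median of 0.58. They include Irs2 at 1.24 ± 0.22, the phosphatidate phosphatase Lpin2 at 0.67 ± 0.12, the kinase Pim3 at 0.72 ± 0.14 and Pck1, the first committed enzyme of gluconeogenesis, at 0.77 ± 0.16. Pck1 had 739 to 1030 FPKM in PM2.5 and 412 to 676 FPKM in filtered air. No gene of these lists was called.

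Overexpressed RGS16 is known to lower fatty acid oxidation in mouse liver. Of 14 tested genes of that pathway 5 were positive and 9 negative for PM2.5 over both light regimes, with a median of -0.07 and none called. In constant light 3 were positive and 11 negative (median -0.15), and in the light/dark cycle 9 and 5 (median 0.06). The rate-limiting Cpt1a stood at 0.32 ± 0.12, its regulator Ppara at 0.82 ± 0.34, Decr1 at -0.17 ± 0.11 and the carnitine carrier Slc25a20 at -0.21 ± 0.14. By lobule zone, 8 of 10 periportal genes were positive (median 0.18) and 7 of 10 pericentral genes negative (median -0.19), again with none called. Besides Pck1, the periportal genes Sds and Cps1 stood at 0.62 ± 0.28 and 0.19 ± 0.16 and Hal, which breaks down histidine, at -0.27 ± 0.10. The pericentral ammonia transporter Rhbg stood at -0.81 ± 0.15, with 2.34 to 4.24 FPKM in PM2.5 and 4.02 to 7.79 FPKM in filtered air. The pericentral genes Lgr5 at -0.46 ± 0.13, Cyp1a2 at -0.40 ± 0.19 and Glul at -0.40 ± 0.20 overlapped between the airs.

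The genes around both loci are given by their values, since calls were made for only 0.0177% of tested genes. The tested gene next to Rgs16 on the side of higher coordinates is Glul, 154 kb away, at -0.40 for PM2.5 over both light regimes. Towards lower coordinates lie Gm6652 (120 kb, 0.13) and the helicase gene Dhx9 (253 kb, 0.23). Around Mtss1 the nearest tested genes are Ndufb9, a subunit of respiratory complex I, at 1.75 kb and -0.15, the DNase-like gene Tatdn1 at -0.19, and Rnf139 at 34.2 kb and 0.11. Gm28513, annotated antisense to Rgs16, was listed with 0 fragments in all 8 libraries. The antisense gene 4930544F09Rik overlaps Mtss1 and was not analysed here. The labels do not say whether reads were counted by strand.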

How the data were processed

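The samples were 8 liver RNA-seq libraries in 4 groups of 2. Per the labels' protocols, RNA came from snap-frozen liver through an RNeasy Micro column kit. Build mm10 and the tools Cuffdiff, Cufflinks and STAR are listed per the submitters' processing notes. Their versions and options: not given in the sources used here. Per the file headers, the deposited table holds estimated counts of fragments per gene and library. The FPKM values beside them, per kilobase of transcript and scaled to library size, were likewise made by the authors. Nonzero fragment values were whole to within 0.01 in 97.4% of cases, and all were rounded for the count tests. Of 48432 genes listed, 47 with a failed estimate in any library (1.07% of fragments) were left out, among them Alb. Gene IDs were matched without their version to GENCODE vM21 (48005 of 48385), and entries of 1 symbol were added, which left 48323.

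The test took in the 11316 genes that reached 1 FPKM in 2 or more libraries. The main test was edgeR 4.0.16's quasi-likelihood test with TMM scaling (R 4.3.3) on 1 model with 4 group means, 4 residual and 3.46 prior degrees of freedom. P-values are two-sided, adjusted by Benjamini-Hochberg across the tested genes, and called at 0.05. The SE is the fold change on the log2 scale over the root of its F, with a median of 0.13 for averages over groups. Log2 CPM used a prior count of 2. Alternatives were DESeq2 1.42.0, limma 3.58.1 on log2(FPKM + 1) or log2(FPKM + 0.1), other scaling and filters, the replicate number as a block, fits of single pairs of groups, and fits with libraries left out. The procedure was checked on counts simulated with known changes between LL and LD libraries, in genes above a minimum mean level. That check covered only the light difference averaged over air, not single pairs of groups or the interaction. Also used were Python 3.11.15, numpy 2.4.6, pandas 2.3.3, scipy 1.17.1 and matplotlib 3.10.9. Replicates differed by 41.6 to 88.7 in chi-square per degree of freedom, beyond sampling noise, and each library was counted as 1 sample.

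The genes named are Rgs16 and Mtss1, the 5 genes of nearest profile to each, all tested RGS and I-BAR family genes, up to 4 genes of smallest p for the mean PM2.5 difference per other list, and the genes at the edge of the choice. Neighbouring genes, and those under the closing observations, were chosen after their values were seen. The members and lists were chosen with earlier results of these data known. Promoter sequences come from RefSeq, GRCm38.p6, and 1 of the 2 genes matched.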

Additional observations from a re-analysis of the deposited data

How the results depend on the processing

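Of 258 fold changes of Rgs16 and Mtss1 under alternatives, 242 kept their direction and their side of the threshold or stayed within the replicate SD. For the light comparisons and the interaction, only direction and call were counted, whatever the size. The 242 thus include the Rgs16 values of -0.26 and 0.47 given below. With no filter on low genes (23030 genes fitted), Rgs16 was called at -1.60 for LL-FA over LD-FA and at 1.97 for the interaction. That fit called 201 and 239 genes in these comparisons. Mtss1 turned to -0.01 for LL-FA over LD-FA without LD-FA replicate 1 and also without both LD-FA replicate 1 and LL-FA replicate 1, an alternative chosen after seeing the data. The cause was not tested. Limma on log2(FPKM + 1), whose pseudocount shrinks low genes, gave Rgs16 1.60 for LL-PM2.5 over LL-FA, 1.13 for LD-PM2.5 over LD-FA, 1.37 for their mean and 1.34 for LL-PM2.5 over LD-FA. It also gave Rgs16 -0.26 for LL-FA over LD-FA and 0.47 for the interaction. With a pseudocount of 0.1 it gave -1.05 and 1.32 for these, and 3.57 for LL-PM2.5 over LL-FA, 2.91 for the mean and 2.52 for LL-PM2.5 over LD-FA. With 1 library left out, Rgs16 ran from 4.01 to 4.92 (LL-PM2.5 over LL-FA), from 2.43 to 3.35 (LL-PM2.5 over LD-FA) and from -0.16 to 0.76 (LL-PM2.5 over LD-PM2.5), and Mtss1 from 1.29 to 1.61 (LD-PM2.5 over LD-FA) and from -0.01 to 0.24 (LL-FA over LD-FA). A group left with 1 library is assumed to vary like the others. Rgs16 has no value with the filter at 5 FPKM.

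Counts of called genes follow in the order LL-FA over LD-FA, LL-PM2.5 over LD-PM2.5, LL over LD, interaction, LD-PM2.5 over LD-FA, LL-PM2.5 over LL-FA, PM2.5 over FA and LL-PM2.5 over LD-FA. By edgeR they were 0, 0, 0, 0, 0, 0, 2 and 0, by DESeq2 43, 141, 92, 33, 151, 58, 161 and 96, and with no filter 201, 358, 291, 239, 647, 476, 696 and 486. Limma on log2(FPKM + 1) called 1, 1, 2, 1 and 1 in LL-PM2.5 over LD-PM2.5, LL over LD, the interaction, LL-PM2.5 over LL-FA and LL-PM2.5 over LD-FA, and with a pseudocount of 0.1 it called 1 for PM2.5 over FA. The filter at 5 FPKM gave 0 for PM2.5 over FA and 2 for LL-PM2.5 over LD-FA. Without the 2 libraries highest in muscle markers, 1 gene was called for LD-PM2.5 over LD-FA and 0 for PM2.5 over FA. With 1 library left out the counts ran from 0 to 4 for LL-PM2.5 over LD-PM2.5, 0 to 1 for LL over LD, 0 to 36 for LD-PM2.5 over LD-FA, 0 to 10 for LL-PM2.5 over LL-FA, 0 to 17 for PM2.5 over FA and 0 to 7 for LL-PM2.5 over LD-FA. The number of genes higher in all PM2.5 libraries was 319 on log2 CPM and 84 at 5 FPKM, and 2 and 3 of the 5 nearest profiles were shared on log2(FPKM + 1).

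Replicate numbers are shared by all groups, and replicate differences correlated between groups with r from -0.59 to 0.33 over 6 pairs of groups. These correlations cannot settle whether samples of the same number share more than that number. With the replicate block, Rgs16 stood at 1.92 for the interaction (edgeR adjusted p = 0.893) and Mtss1 at -0.42, and no call of either gene changed.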

Other observations

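Other genes separated the airs less. They are named here after their values were seen. After Rgs16 and Mtss1, and Rmrp with its few fragments, the ratio of the lowest PM2.5 to the highest filtered air library was 1.36 for Slc5a6, a vitamin transporter, with a mean of 2.57 FPKM in PM2.5 and 1.61 FPKM in filtered air. It was 1.33 for the inositol hexakisphosphate kinase Ip6k2 (14.8 and 8.58 FPKM) and 1.29 for the cationic amino acid transporter Slc7a2 (85.4 and 50.9 FPKM), each with PM2.5 first. These values rest on the same 8 libraries and were not tested.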
